A study of Homo sapiens with 18 samples.

Results

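The genes described here are 10 secreted signals of inflammation: the CXC chemokines CXCL8 (interleukin-8), CXCL1, CXCL2, CXCL3 and CXCL6, the CC chemokines CCL2 and CCL20, and the interleukins IL6, IL1B and IL32. They were chosen by name, and each was read from the array probe set that is annotated to that gene alone and has the highest mean over 18 arrays. All 10 have such a probe set, as do 19775 genes in all, and 8 of them were among the 10832 genes that were tested. CXCL1 and CXCL6 did not reach a log2 level of 4 on any array and were not tested.

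The series holds 18 Affymetrix expression arrays of HK-2 cells, an established line of immortalised epithelial cells from the human renal proximal tubule. It contains the control arms of a study of compounds toxic to the kidney: cells in medium alone, in medium with the solvent DMSO and in medium with the solvent ethanol, each for 24 h or 48 h, with 3 biological replicates in each of the 6 groups. The sample labels give 24 h for the shorter exposure, whereas the text of the series gives 12 h; the label is used here. All groups shared one culture medium, with glucose at 5 mM, EGF at 10 ng/ml, the glucocorticoid hydrocortisone at 36 ng/ml and insulin at 5 µg/ml. All wells were seeded with 700000 cells 24 h before treatment and were about 90% confluent when treated. The concentrations of DMSO and of ethanol are not given in the sources used here, and all arrays come from this 1 line. Values are log2 expression levels after GCRMA, the summary of Affymetrix probes that corrects background by probe sequence.

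Chemokines are small secreted proteins that draw leukocytes along a gradient. The CXC chemokines described here bind CXCR2, some of them also CXCR1, and recruit mainly neutrophils. CCL2 recruits monocytes through CCR2, and CCL20 attracts cells that carry CCR6. IL6 signals through IL6R and the shared subunit IL6ST, and IL1B, made as a precursor that caspase-1 cuts, signals through IL1R1 with IL1RAP. Their promoters are textbook targets of NF-kB and of bZIP factors such as AP-1 and the C/EBP family. Proximal tubule epithelium is known to make several of them when the kidney is injured or inflamed.

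The sequences just upstream of the gene starts are shown for 5 genes that had their highest value on the same ethanol array (24 h, replicate 3). CXCL1, which stayed at background, is shown beside them, and all carry closely related motifs there. IL32, also highest on that array, and CXCL6, also at background, have NF-kB matches too and are not printed. The sequences shown were thus picked with the levels known. Each is the 250 bases before the annotated start, from RefSeq on GRCh38.p14, written 5′ to 3′ on the strand of the gene. Capitals mark matches to an NF-kB motif, either the NF-kB consensus of 10 letters or GGANTTTCC, searched on both strands.
CXCL8 (chr4:73740319-73740568, plus strand): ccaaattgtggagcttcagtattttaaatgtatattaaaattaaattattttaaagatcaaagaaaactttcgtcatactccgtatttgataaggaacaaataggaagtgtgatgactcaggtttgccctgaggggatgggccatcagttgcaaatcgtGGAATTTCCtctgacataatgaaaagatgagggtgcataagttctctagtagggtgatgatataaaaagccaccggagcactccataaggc
CXCL2 (chr4:74099196-74099445, minus strand): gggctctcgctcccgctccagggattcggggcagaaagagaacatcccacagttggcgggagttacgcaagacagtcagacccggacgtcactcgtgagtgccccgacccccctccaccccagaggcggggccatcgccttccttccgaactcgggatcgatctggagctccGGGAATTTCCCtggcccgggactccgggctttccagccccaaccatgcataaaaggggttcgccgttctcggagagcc
CXCL3 (chr4:74038690-74038939, minus strand): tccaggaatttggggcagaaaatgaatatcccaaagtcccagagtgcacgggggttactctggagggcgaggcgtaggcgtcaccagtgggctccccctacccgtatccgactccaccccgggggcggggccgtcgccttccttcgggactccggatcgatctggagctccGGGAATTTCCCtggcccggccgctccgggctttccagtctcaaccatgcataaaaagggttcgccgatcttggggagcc
CXCL1 (chr4:73869143-73869392, plus strand): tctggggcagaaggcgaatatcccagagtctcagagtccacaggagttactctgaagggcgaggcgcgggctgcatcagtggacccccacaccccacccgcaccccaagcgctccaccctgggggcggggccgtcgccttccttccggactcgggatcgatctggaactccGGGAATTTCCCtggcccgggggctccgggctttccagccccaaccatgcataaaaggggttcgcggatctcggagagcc
CCL20 (chr2:227813592-227813841, plus strand): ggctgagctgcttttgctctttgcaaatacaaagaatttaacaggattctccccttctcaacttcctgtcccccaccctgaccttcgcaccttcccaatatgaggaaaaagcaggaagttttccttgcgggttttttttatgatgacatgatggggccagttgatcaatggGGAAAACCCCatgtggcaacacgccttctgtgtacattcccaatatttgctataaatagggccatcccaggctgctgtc
IL6 (chr7:22726950-22727199, plus strand): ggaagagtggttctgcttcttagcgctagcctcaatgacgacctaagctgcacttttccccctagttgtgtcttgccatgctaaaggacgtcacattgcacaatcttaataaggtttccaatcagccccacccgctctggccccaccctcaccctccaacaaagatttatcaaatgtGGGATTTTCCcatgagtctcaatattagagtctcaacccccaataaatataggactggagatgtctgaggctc

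Of the 10 members, 9 matched a RefSeq promoter entry, with 2 entries for IL32 and thus 10 windows. The NF-kB consensus matched in 7 of these 10 windows and in 5.2% of all 35097 RefSeq windows of the same length. GGANTTTCC, which overlaps the consensus, also matched in 7 of 10, against 1.45% of all windows. The AP-1 letters TGANTCA matched in 1 of 10 (CXCL8) against 6.57%, the C/EBP-like letters TTGCNNAA in 3 of 10 (CXCL2, IL6 and IL1B) against 9.05%, and TGATGCAA, a joint C/EBP and ATF4 motif, in 0 of 10 against 0.772%. All motifs were searched on both strands and were picked with this gene family in mind, so these shares describe the windows and are no test.

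CXCL1, CXCL2, CXCL3 and CXCL6 have the same 10 letters, GGGAATTTCC, starting 79, 78, 79 and 90 bases before the gene start. The windows of CXCL1 and CXCL3 were identical at 84% of the 250 bases, those of CXCL2 and CXCL3 at 78%, and those of CXCL1 and CXCL2 at 72.4%. The CXCL8 window matched only the shorter motif. On the arrays CXCL1 read at background throughout, and CXCL3 read up to 10.43 under ethanol.

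Across the 18 arrays the median probe set had a level of 2.86 to 2.95, and 39.7% to 40.3% of probe sets lay above 4, so levels between 2 and 3 are those of probe sets with no clear signal. Probe sets for 8 of 9 leukocyte markers and for all 5 endothelial markers were annotated, and none of them exceeded 4 on any array (mean level of the leukocyte list 2.40 to 2.49 over all arrays). Of 11 renal epithelial markers measured, 6 (KRT8, KRT18, EPCAM, PAX8, CDH2 and HAVCR1) were above 4 on every array, and 5 markers of mature tubule (ANPEP, GGT1, LRP2, CUBN and AQP1) were above 4 on no array. The mean of the renal list was 7.29 to 7.56 at 24 h and 7.34 to 7.40 at 48 h under ethanol, against 7.50 to 7.61 and 7.40 to 7.58 in medium. EPCAM, an epithelial adhesion protein, was 11.90 and 12.12 on the ethanol replicate 3 arrays at 24 h and 48 h. It was 12.73 to 13.34 on the 12 medium and DMSO arrays, and 13.14 to 13.68 on the other ethanol arrays. KRT8 (10.62 and 10.75) and HAVCR1 (10.98 and 10.64) were also below the 12 on the replicate 3 arrays, and on some other ethanol arrays. PAX8 was 11.44 and 11.19 on the replicate 3 arrays, against 10.57 to 11.22 on the 12. KRT18 and CDH2 lay within their ranges on the 12. Of 6 fibroblast markers, DCN, LUM and COL1A1 were above 4 on all arrays, and the mean of that list was 6.17 to 6.54 at 24 h and 5.81 to 6.21 at 48 h under ethanol, against 6.39 to 6.57 and 6.22 to 6.32 in medium. The part of these markers in the results below was not tested.

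One ethanol array stood apart from its group. On the ethanol 24 h array of replicate 3, 21.8% of the genes tested lay above all 12 medium and DMSO arrays and 26.8% below them, compared with 7.41% and 12.3% on replicate 1 and 10.6% and 11.4% on replicate 2. At 48 h the 3 ethanol arrays were alike in this respect, with 22.3% to 24.1% above and 23.5% to 29.3% below. Results that involve ethanol are given with all arrays and without both ethanol replicate 3 arrays. That setting was chosen after the data were seen, and by this measure only the 24 h array of replicate 3 stood apart.

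CXCL8, which attracts neutrophils, had a strong signal on every array, also without any solvent. In medium its level was 12.64, 12.84 and 12.96 at 24 h and 12.43, 12.45 and 12.74 at 48 h in replicates 1, 2 and 3. In DMSO it was 12.43, 12.66 and 12.59 at 24 h and 12.38, 12.20 and 12.61 at 48 h. Under ethanol it was 12.47, 12.65 and 14.57 at 24 h and 12.87, 13.31 and 14.25 at 48 h. Only replicate 3 stood above the medium range at 24 h, whereas at 48 h all 3 ethanol arrays were above all 3 medium arrays. The other CXCL8 probe set read 12.28, 12.27 and 15.01 at 24 h and 12.43, 13.59 and 14.56 at 48 h under ethanol, so its replicate 1 at 48 h lay inside the medium range of 11.85 to 12.53.

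CXCL2, a second neutrophil chemokine, had levels of 9.23, 9.46 and 9.78 in medium at 24 h and 9.17, 8.89 and 9.47 at 48 h. Its DMSO levels were 9.11, 9.70 and 9.81 at 24 h and 8.96, 9.21 and 9.67 at 48 h. Under ethanol the levels were 9.33, 9.62 and 13.80 at 24 h and 10.14, 12.07 and 13.29 at 48 h. The 48 h ethanol arrays were thus all above the medium arrays and differed among themselves by more than the medium and DMSO arrays spanned together. A second CXCL2 probe set read 2.70 to 2.94 on the 12 arrays without ethanol and 6.48 on ethanol replicate 3 at 24 h. At 48 h it read 3.00, 4.85 and 5.46 under ethanol, the same order as the first probe set. The third stayed at 2.49 to 2.67 on all arrays. The signal of CXCL2 without ethanol thus rests on the first probe set alone, and whether that probe set reads only CXCL2 was not tested.

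CXCL3, the close relative of CXCL2, was only just above background without ethanol, at 3.89 to 4.68 over the 12 medium and DMSO arrays with a median of 4.66. Under ethanol it was 4.42, 5.12 and 10.43 at 24 h and 5.65, 8.33 and 8.03 at 48 h. All 3 ethanol arrays at 48 h and replicates 2 and 3 at 24 h were above every medium and DMSO array. CXCL1 stayed between 2.45 and 2.50, and CXCL6 between 2.40 and 2.48, on all 18 arrays, ethanol replicate 3 included. Each of these genes has 1 probe set on the array, and whether that probe set can detect its transcript was not tested.

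CCL20, the ligand of CCR6, covered the widest range of the members. Its levels were 5.34, 5.53 and 5.76 in medium at 24 h and 4.20, 4.48 and 3.57 at 48 h, and 4.53, 5.98 and 5.41 in DMSO at 24 h and 2.28, 4.54 and 4.72 at 48 h. Under ethanol it was 4.55, 5.32 and 13.65 at 24 h and 5.95, 9.59 and 11.54 at 48 h. Replicate 3 at 24 h was 8.95 log2 units above the mean of the 12 medium and DMSO arrays, a 495-fold ratio, while replicates 1 and 2 lay within the range of those arrays. At 48 h the ethanol arrays were all above the medium arrays, and replicate 1 remained just inside the range of the 12.

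IL6, the interleukin of the acute-phase response, was near background without ethanol, at 1.67 to 5.68 over 12 arrays with a median of 3.88. Under ethanol its levels were 3.35, 3.87 and 11.59 at 24 h and 4.07, 5.98 and 9.70 at 48 h. The groups overlapped at both times, because replicate 1 at 48 h lay within the medium range of 2.56 to 4.62.

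CCL2, the monocyte chemokine, did not share this order. Under ethanol its levels were 6.51, 6.95 and 6.31 at 24 h and 7.10, 6.96 and 3.31 at 48 h, against 6.17, 7.06 and 5.61 in medium at 24 h and 6.96, 8.40 and 6.93 at 48 h. The array with high CXCL8, CXCL2, CCL20 and IL6 at 48 h, replicate 3, had the lowest CCL2 of all 18 arrays, below all 12 medium and DMSO arrays, as were 28.2% of all genes there. IL1B was 4.74, 5.86 and 4.43 under ethanol at 24 h and 4.93, 5.79 and 4.66 at 48 h, within the range of 4.31 to 7.05 of the arrays without ethanol. IL32, an intracellular and secreted cytokine with no settled receptor, was 9.86, 9.42 and 11.49 at 24 h and 8.76, 10.45 and 10.26 at 48 h under ethanol. Its highest value was on ethanol 24 h replicate 3 and its lowest on ethanol 48 h replicate 1.

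**Figure D1:**
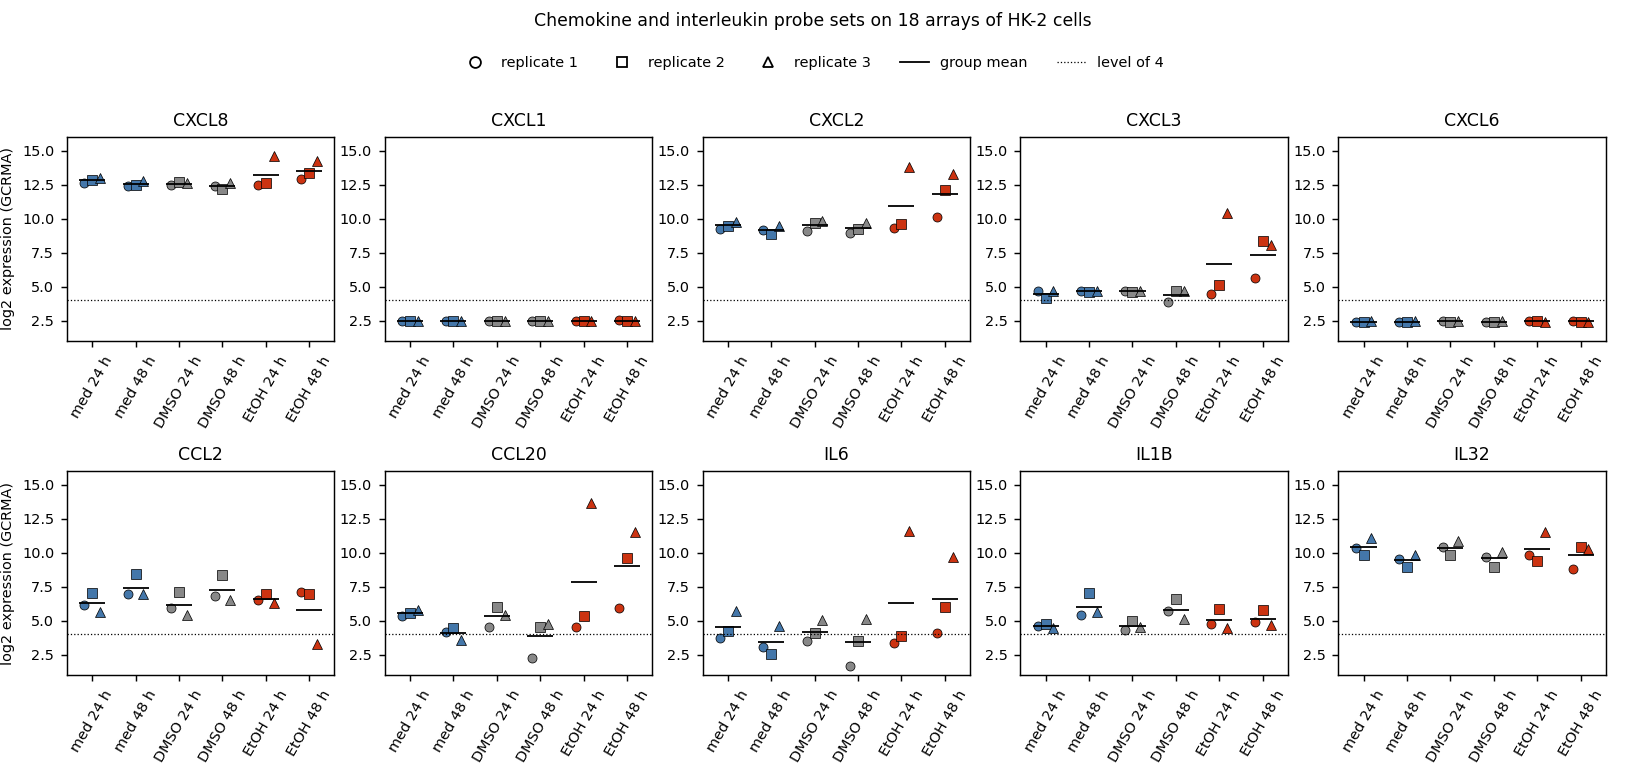
Log2 expression level (y axis) of the 10 genes on each of 18 arrays, by group (x axis; med is medium and EtOH is ethanol); circles, squares and triangles are replicates 1, 2 and 3, bars are group means of 3 arrays and the dotted line is the level of 4. CXCL8, CXCL2, CXCL3, CCL20 and IL6 had their highest value on ethanol 24 h replicate 3 in each panel, and CXCL1 and CXCL6 stayed below 2.51 on every array.

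Counted array by array, 0 of 8 tested members lay above all 12 medium and DMSO arrays on ethanol 24 h replicate 1, where 7.41% of all genes did. On replicate 2 it was 1 of 8 (CXCL3) against 10.6% of genes, and on replicate 3 it was 6 of 8 (CXCL8, CXCL2, CXCL3, CCL20, IL6 and IL32) against 21.8%. At 48 h it was 2 of 8 on replicate 1 (CXCL2 and CXCL3) against 23.8%, and 5 of 8 on both replicate 2 and replicate 3 against 22.3% and 24.1%. Those 5 were CXCL8, CXCL2, CXCL3, CCL20 and IL6 on both arrays. The median difference of the 8 from their mean on the 12 arrays was -0.14, 0.21 and 3.21 at 24 h and 0.31, 1.42 and 2.58 at 48 h in replicates 1, 2 and 3, whereas the median over all genes was between -0.05 and -0.01 on each array. At 48 h the share of all genes displaced was similar on the 3 ethanol arrays, but the displacement of the members was smallest on replicate 1. All of these values are per amount of RNA from a whole well, in which fewer cells of a type and less RNA per cell cannot be told apart.

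For ethanol against medium at 48 h, which asks what the solvent did over the longer exposure, the fitted differences of the chemokines and IL6 were large and their errors were large too. CCL20 was higher by 4.94 ± 1.82 log2 units (SE; 30.8-fold), IL6 by 3.18 ± 1.80, CXCL3 by 2.70 ± 1.10, CXCL2 by 2.66 ± 0.92 and CXCL8 by 0.94 ± 0.43 (3 arrays against 3, spread from all 18). CCL2 differed by -1.64 ± 0.84, IL1B by -0.89 ± 0.47 and IL32 by 0.36 ± 0.55. By limma's moderated test with Benjamini-Hochberg adjustment over all genes, none of the 8 passed an adjusted p of 0.05, while 15.3% of all genes did. The adjusted p was 0.0636 for CXCL2, 0.0801 for CCL20, 0.112 for CXCL3, 0.152 for CXCL8, 0.204 for CCL2, 0.218 for IL1B, 0.250 for IL6 and 0.700 for IL32. At an unadjusted p under 0.05 there were 4 of 8 (CXCL8, CXCL2, CXCL3 and CCL20), against 30.3% of all genes. The same 4 had ethanol arrays that were all above the medium arrays, a pattern found in 14.2% of all genes, and 0 of 8 had ethanol arrays all below them (15.4% of all genes). The median difference of the 8 was 1.80, beside -0.04 over all genes.

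Without the ethanol replicate 3 arrays the differences and their SEs at 48 h were both smaller for CXCL8, CXCL2, CXCL3, CCL20, IL6 and CCL2. CXCL2 was then higher by 1.93 ± 0.43 (adjusted p = 0.00961 by limma), CXCL3 by 2.35 ± 0.54 (adjusted p = 0.011), CCL20 by 3.69 ± 0.89 (adjusted p = 0.0139) and CXCL8 by 0.56 ± 0.16 (adjusted p = 0.0348). These 4 of 8 passed in this setting, which was chosen after the data were seen, beside 17.3% of all genes. IL6 was higher by 1.62 ± 0.94 (adjusted p = 0.255) and CCL2 differed by -0.40 ± 0.62 (adjusted p = 0.705), and neither passed. The same 4 genes also passed when only the 24 h array of replicate 3 was left out, which takes no 48 h array away and changes only the spread. Leaving out 1 array at a time also moved the count over all genes, to between 861 and 2336, against 1654 with all arrays.

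At 24 h none of the 8 members passed against medium, with 0.0739% of all genes past the adjusted threshold by limma. At an unadjusted p under 0.05 it was 0 of 8, beside 8.91% of all genes. The fitted differences were 2.29 ± 1.82 for CCL20, 2.17 ± 1.10 for CXCL3, 1.75 ± 1.80 for IL6, 1.43 ± 0.92 for CXCL2 and 0.41 ± 0.43 for CXCL8, with adjusted p between 0.616 and 0.852. These values rested on replicate 3. Without it CXCL8 differed by -0.26, CXCL2 by -0.02, CCL20 by -0.61 and IL6 by -0.91, and CXCL3 remained positive, with none of the 8 past the threshold beside 1.33% of all genes. With the replicate number as a block none of the 8 passed, beside 1.02% of all genes.

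**Figure D2:**
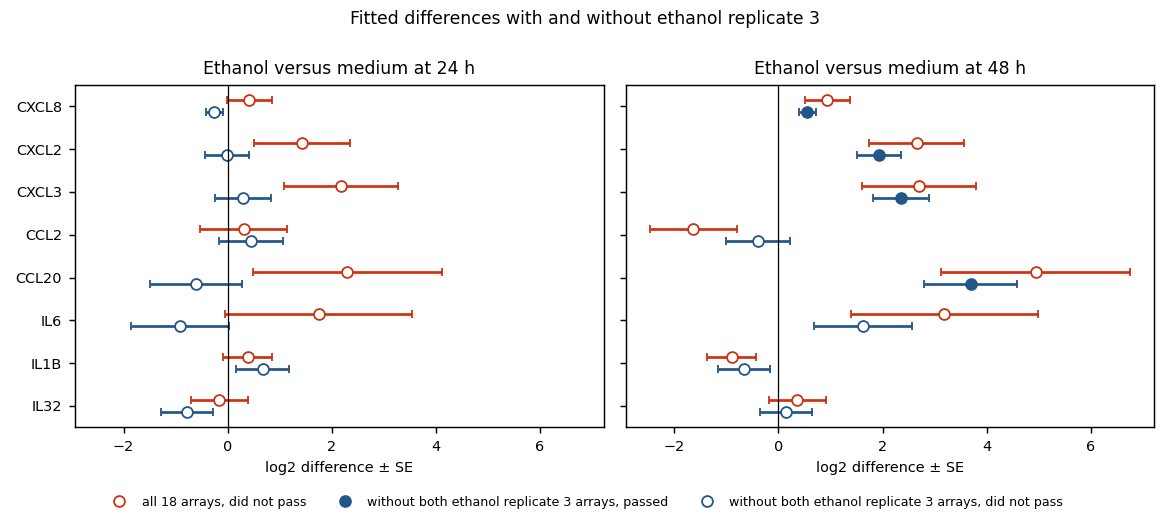
Log2 difference of ethanol minus medium (x axis; points are fitted differences, bars are 1 SE) for the 8 members tested at 24 h and at 48 h, with all 18 arrays (red) and without both ethanol replicate 3 arrays (blue); filled points passed an adjusted p of 0.05 in limma. At 24 h CXCL8, CXCL2, CCL20 and IL6 changed sign between the fits, and at 48 h CXCL8, CXCL2, CXCL3 and CCL20 passed only without replicate 3.

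Against DMSO the picture was close to that against medium, and both comparisons use the same ethanol arrays. At 48 h the differences were 5.18 ± 1.82 for CCL20, 2.92 ± 1.10 for CXCL3, 2.55 ± 0.92 for CXCL2, 1.08 ± 0.43 for CXCL8 and 3.16 ± 1.80 for IL6, with adjusted p of 0.0610, 0.0791, 0.0675, 0.0933 and 0.241. None of the 8 passed, where 17.9% of all genes did. At an unadjusted p under 0.05 it was 4 of 8, against 32.7% of all genes. Without ethanol replicate 3, CXCL8, CXCL2, CXCL3 and CCL20 passed, beside 21.2% of all genes. At 24 h none of the 8 passed, where 0.619% of all genes did, and 0 had an unadjusted p under 0.05, against 12.9% of all genes. Without replicate 3, 0 of 8 and 2.51% of all genes passed the adjusted threshold.

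The differences between DMSO and medium were smaller than their SEs for all 8 tested members at both times. The difference furthest from 0 among the 8 was -0.33 ± 1.80 for IL6 at 24 h, and CXCL8 differed by -0.26 ± 0.43 at 24 h and -0.14 ± 0.43 at 48 h. None of the 8 passed at either time by limma, and 0% of all genes did. At an unadjusted p under 0.05 it was 0 of 8, beside 1.88% of all genes at 24 h and 0.489% at 48 h. For IL6 and CCL20 the SEs of 1.80 and 1.82 leave room for differences that this fit could not detect. These SEs use the spread of all groups, ethanol included. The SD of CCL20 was 5.05 and 2.83 under ethanol at 24 h and 48 h. It was 0.21 and 0.47 in medium and 0.73 and 1.36 in DMSO. By the probe set used, CXCL8 was lower in DMSO than in medium in each same-numbered pair at both times. By its other probe set replicate 3 at 48 h was higher in DMSO (12.70 against 12.53). How many of all genes had the same sign in every pair was not counted. With the replicate number as a block, 0 of the 8 passed at either time by limma.

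Between 24 h and 48 h of culture without ethanol, CCL2 and IL1B had higher levels and CCL20 and IL32 lower levels at 48 h, with the same sign in medium and in DMSO. IL1B was 4.63, 4.79 and 4.47 in medium at 24 h and 5.39, 7.05 and 5.62 at 48 h, and 4.31, 4.98 and 4.55 in DMSO at 24 h and 5.68, 6.58 and 5.15 at 48 h. The 48 h arrays were above the 24 h arrays without overlap in both, as in 12.3% of all genes in medium and 10.5% in DMSO. CCL2 was 5.96, 7.10 and 5.44 in DMSO at 24 h and 6.79, 8.33 and 6.54 at 48 h, and it was higher at 48 h in each of the 3 replicates of medium and of DMSO. IL32 was 10.36, 9.82 and 11.06 in medium at 24 h and 9.56, 8.95 and 9.86 at 48 h, and 10.38, 9.82 and 10.89 in DMSO at 24 h and 9.70, 8.96 and 10.06 at 48 h. In each replicate it was lower at 48 h, although the groups overlapped because replicates kept their order.

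In the fit of group means, none of the 8 passed for time in medium or in DMSO, and 0% of all genes did; at an unadjusted p under 0.05 it was IL1B in each, with 11.1% and 10.2% of all genes. Arrays with the same replicate number deviated together, so the replicate number was also used as a block. IL1B then passed, at 1.39 ± 0.24 in medium (adjusted p = 0.0138 by limma; 4.04% of all genes passed) and 1.19 ± 0.24 in DMSO (adjusted p = 0.0318; 2.37% of all genes). With the block and only the 12 medium and DMSO arrays, a setting chosen after the data were seen, 5 of 8 passed in medium and 4 of 8 in DMSO, beside 29.8% and 28.5% of all genes. In medium these were CCL2 (1.15 ± 0.12), IL1B (1.39 ± 0.26), IL32 (-0.96 ± 0.08), CCL20 (-1.46 ± 0.46) and CXCL8 (-0.28 ± 0.09), and IL6 (-1.12 ± 0.38, adjusted p = 0.0501) did not pass. In DMSO they were CCL2 (1.05 ± 0.12), IL1B (1.19 ± 0.26), IL32 (-0.79 ± 0.08) and CCL20 (-1.46 ± 0.46). The second IL1B probe set was also higher at 48 h in every replicate, at 3.77, 4.45 and 4.03 against 4.83, 5.69 and 5.30 in medium.

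**Figure D3:**
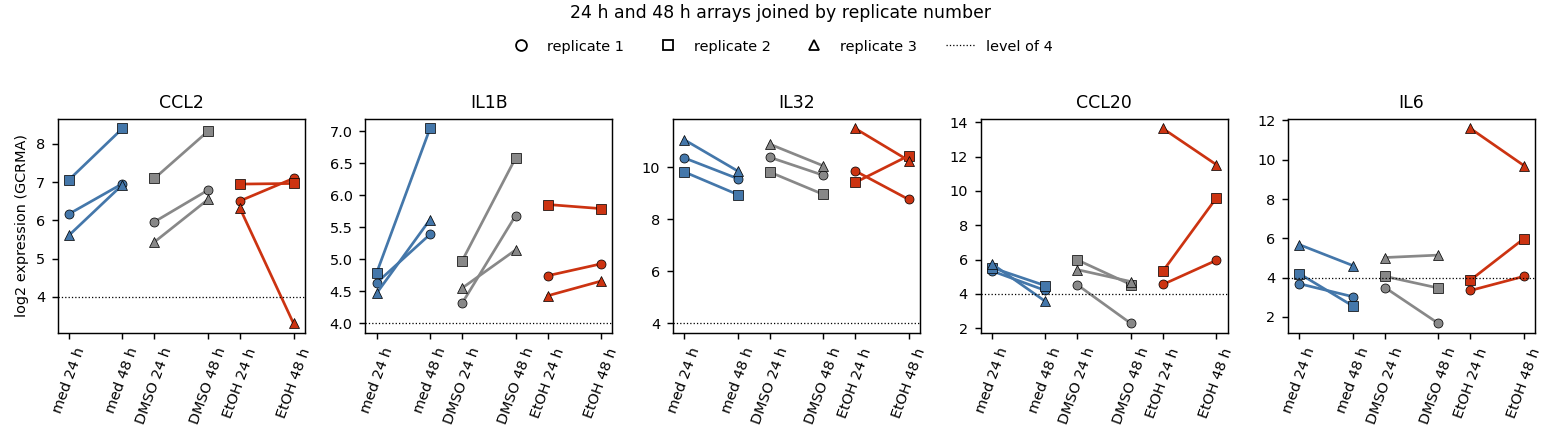
Log2 expression level (y axis, a separate scale in each panel) of 5 members at 24 h and 48 h in medium (med), DMSO and ethanol (EtOH); lines join arrays of the same replicate number and the dotted line is the level of 4. CCL2 and IL1B were higher and IL32 lower at 48 h on all 6 lines of medium and DMSO, and the ethanol lines of CCL20 and IL6 ran upward in replicates 1 and 2 and downward in replicate 3.

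Under ethanol none of the 8 passed for 48 h against 24 h, although 23% of all genes passed by limma. At an unadjusted p under 0.05 it was 0 of 8, beside 35.1% of all genes. CCL20 was higher at 48 h in replicates 1 and 2 (4.55 to 5.95 and 5.32 to 9.59) and lower in replicate 3 (13.65 to 11.54), and CXCL2, CXCL8 and IL6 had the same split. Without both replicate 3 arrays CXCL2 (1.63 ± 0.47, adjusted p = 0.0278 by limma) and CXCL3 (2.22 ± 0.59, adjusted p = 0.0198) passed, beside 19% of all genes, and CCL20 (2.84 ± 0.97, adjusted p = 0.0576) did not. IL1B, which was higher at 48 h on every pair of arrays without ethanol, differed by 0.12 ± 0.47 between the times under ethanol. The test of whether the time change differed between ethanol and medium passed for none of the 8, beside 1.59% of all genes. At an unadjusted p under 0.05 it was 0 of 8, beside 13.8% of all genes. Without replicate 3 none of the 8 passed the adjusted threshold (2.18% of all genes). With the replicate block as well, a setting chosen after the data were seen, 4 of 8 passed for this test (CXCL8, CXCL2, CCL20 and IL6) and 5 of 8 for 48 h against 24 h in ethanol (the same 4 and CXCL3), beside 878 and 3290 of the 10832 genes. Same-numbered arrays deviated together between the 24 h and 48 h ethanol groups, but not in every pair between ethanol and medium at 48 h. With all arrays and no block, the differences in time change were 2.65 ± 2.57 for CCL20, -1.95 ± 1.18 for CCL2 and -1.27 ± 0.67 for IL1B.

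Over all 6 groups the members varied more between replicates than most genes. Their residual SD within groups was 0.57 for CXCL8 to 2.45 for CCL20, which placed them between the 94.4th and the 99.98th percentile of all genes tested, whose median was 0.229. For most members the ethanol arrays carried much of it. For CXCL8 the SD of 3 arrays was 0.12 to 0.21 in the 4 medium and DMSO groups, and 1.16 and 0.70 under ethanol at 24 h and 48 h. IL1B and CCL2 differed from this. For IL1B the SD was 0.90 in medium and 0.73 in DMSO at 48 h, and 0.75 and 0.59 under ethanol at 24 h and 48 h. For CCL2 it was 0.73 to 0.97 without ethanol, and 0.33 and 2.15 under ethanol. Part of the spread had the same order in each group without ethanol. CXCL2, IL6 and IL32 were highest in replicate 3 in all 4 medium and DMSO groups, as were 11.9% of all genes, and CCL2 and IL1B were highest in replicate 2 in all 4, as were 8.13%. CCL2 was also lowest in replicate 3 in all 4 groups (11.6% of genes) and IL32 lowest in replicate 2 in all 4 (15.3%). Over the 12 arrays without ethanol, which share culture time and replicate number, Pearson's r was -0.97 between CCL2 and IL32, 0.90 between CCL2 and IL1B and 0.91 between CXCL2 and IL6. These were the pairs of members with r furthest from 0. Other pairs were near 0, such as CXCL8 with CXCL3 (0.03) and CXCL3 with IL1B (-0.07). These are descriptions of 12 arrays with no test.

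The receptors of these signals were measured in the same cells. CXCR1, CXCR2, CCR2 and CCR6, through which the chemokines act on leukocytes, lay between 1.96 and 3.12 on all 18 arrays. IL6ST was at 11.47 to 12.63, IL6R at 7.09 to 8.59, IL1RAP at 7.60 to 8.78 and IL1R1 at 5.32 to 7.16. Of 12 receptor genes in the list, 6 were tested and 0 passed for ethanol against medium at 48 h by limma, against 15.3% of all genes; IL6ST (0.35 ± 0.15) had an unadjusted p of 0.0286. Without ethanol replicate 3, 2 of the 6 passed as higher, IL6ST (0.46 ± 0.14) and IL1RAP (0.41 ± 0.12), beside 8.71% of all genes.

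Of 29 other chemokines and cytokines, 10 were tested and 0 passed at 48 h, beside 15.3% of all genes; CXCL5 had an unadjusted p of 0.0475. CXCL5, a further ligand of CXCR2, resembled the members most: it was 5.89 to 8.75 on the 12 arrays without ethanol and 7.78, 8.05 and 13.89 at 24 h and 7.85, 9.13 and 12.17 at 48 h under ethanol. Its difference at 48 h was 2.80 ± 1.29 (adjusted p = 0.159 by limma), and 1.57 ± 0.50 (adjusted p = 0.0468) without replicate 3. It was the 1 of 10 that passed in that setting, beside 8.71% of all genes higher. TNF, a main inducer of NF-kB, was between 1.91 and 2.06 on all arrays, and IL1A exceeded 4 on 1 array, ethanol 48 h replicate 2 (4.71).

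Among 19 tested NF-kB subunits and regulators, 2 were higher and 1 lower under ethanol at 48 h, where 7.8% of all genes were higher and 7.47% lower. TNFAIP3, which encodes the NF-kB inhibitor A20, rose by 2.62 ± 0.83, the subunit gene RELB rose by 0.87 ± 0.26 and the kinase gene IRAK1 fell by 0.38 ± 0.12 on the log2 scale. Without ethanol replicate 3, TNFAIP3 still passed (2.06 ± 0.46, adjusted p = 0.0102 by limma) and NFKBIE passed as higher. These were 2 of 19, beside 8.71% of all genes higher. RELB (0.64 ± 0.26, adjusted p = 0.110) and IRAK1 (-0.32 ± 0.14, adjusted p = 0.123) did not pass in that setting. RELB exceeded 4 on only 3 arrays. TNFAIP3 was 5.26, 5.94 and 9.46 under ethanol at 24 h, with replicate 3 far above the others as for CXCL2.

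Of 12 other factors that act at cytokine genes, 5 rose at 48 h and none fell, where 7.8% of all genes were higher and 7.47% lower. They were ATF3 (4.40 ± 0.71), DDIT3 (3.49 ± 0.47), CEBPB (1.24 ± 0.37), JUN (1.15 ± 0.33) and ATF4 (0.82 ± 0.15), bZIP factors of the stress and AP-1 families, and the same 5 passed without replicate 3, where 17.3% of all genes passed in either direction. JUN (10.35), CEBPB (13.21) and ATF3 (7.16) were, like the chemokines, above all 12 arrays without ethanol on ethanol 24 h replicate 3. For ATF3 the highest of those 12 was 6.87. DDIT3 and ATF4 had another order over the arrays. On ethanol 24 h replicate 3, where CCL20 and IL6 were highest, DDIT3 (7.44) and ATF4 (12.10) had the lowest values of all 18 arrays. On ethanol 48 h replicate 1, where CCL20 was 5.95, all 5 factors were above all 12 arrays without ethanol. DDIT3 was 12.51 there, ATF4 13.20, ATF3 9.22, CEBPB 12.61 and JUN 9.81.

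In the 5-gene list of interleukin-6 signalling, 2 fell at 48 h, the feedback inhibitor SOCS3 by 0.99 ± 0.24 and the transcription factor STAT3 by 0.52 ± 0.14 on the log2 scale, beside 7.47% of all genes lower. Both also passed without replicate 3, where 8.64% of all genes were lower. None of 5 tested genes of cytokine mRNA decay and none of 2 tested genes of interleukin-1 processing passed, beside 15.3% of all genes. At 24 h no gene of any of these lists passed.

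**Figure D4:**
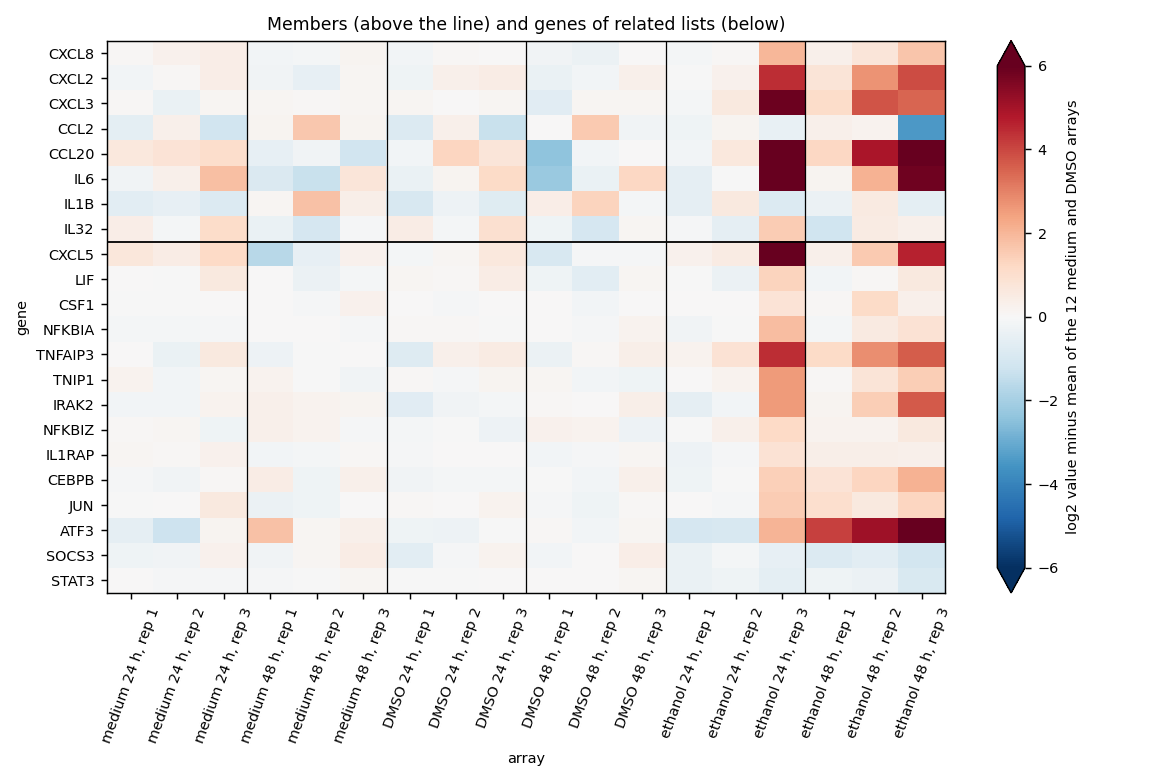
Log2 level of 8 members and 14 genes of the related lists (y axis) on 18 arrays (x axis; rep is replicate) minus the gene's mean over the 12 medium and DMSO arrays, by colour, with differences beyond 6 drawn in the end colours. The chemokines CXCL8, CXCL2, CXCL3 and CCL20, with IL6, CXCL5 and TNFAIP3, were highest on ethanol 24 h replicate 3 and on ethanol 48 h replicates 2 and 3, whereas ATF3 was high on all 3 ethanol arrays at 48 h.

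The genes whose levels ran most like CXCL8 over the 18 arrays, by Pearson's r, were IL4I1 (0.98), PLSCR1 (0.96), PTX3 (0.96), RIPK2 (0.96), HDAC9 (0.96), CXCL5 (0.96), CCN3 (0.95), TANGO2 (0.95), CDYL (0.95) and PMAIP1 (0.94). Among the members themselves r with CXCL8 was 0.97 for CXCL2, 0.96 for IL6, 0.95 for CCL20 and 0.91 for CXCL3, but 0.56 for IL32, -0.38 for IL1B and -0.55 for CCL2. These values rest largely on the 2 ethanol replicate 3 arrays. Over the other 16 arrays r was 0.86 for IL4I1, 0.84 for CXCL2, 0.81 for HDAC9, 0.79 for CCL20, 0.76 for PTX3, 0.76 for IL6 and 0.65 for CCN3. PTX3, a secreted pattern-recognition protein, was 6.67 to 7.22 on the 12 arrays without ethanol. Under ethanol it was 7.03, 6.88 and 12.52 at 24 h and 7.84, 9.80 and 12.05 at 48 h, and like CXCL2 it lay above all 12 on ethanol 24 h replicate 3 and on all 3 ethanol 48 h arrays.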

How the data were processed

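RNA of 18 HK-2 cultures was hybridised to Affymetrix arrays, 3 per group. The authors deposited log2 expression values made with GCRMA, per the submitters' processing notes; its version is not given in the sources used here, and the log2 scale was read from the range of the values (0.88 to 16.1). Any difference between scan batches is not recorded in the labels. The deposited log2 values were used as they stand, and no further normalization was applied.

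Probe sets with 1 annotated gene (41091 of 54675; 1801 had several genes, 11721 none and 62 were controls) were kept if above 4 on at least 3 of 18 arrays, with the probe set of highest mean per gene, which gave 10832 genes. Symbols were updated through RefSeq gene IDs for 41037 probe sets. None of the 8 members tested passed this filter through the ethanol arrays alone. Differences were fitted as group means with lmFit and eBayes (limma 3.58.1, R 4.3.3) in 1 fit of all 6 groups, two-sided, with Benjamini-Hochberg adjustment over all genes within each of 10 comparisons and a threshold of 0.05, and the procedure was tested on simulated data. Tests follow the spread between biological replicates as labelled. Arrays do not have a sequencing depth; their number limits the precision.

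Same-numbered arrays deviated together for DMSO against medium (r 0.61 to 0.73), time in medium (0.53 to 0.60) and DMSO (0.60 to 0.60), time in ethanol (0.32 to 0.68), and ethanol against medium (0.22 to 0.48) and DMSO (0.21 to 0.42) at 24 h. The labels give only the replicate number, so this pairing is read from the data.

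The members and lists were chosen with earlier results of these data known. Named beside the members were list genes past the threshold for ethanol against medium (up to 4 per direction and list, with all 5 of 1 list given), the receptors and the 10 genes most correlated with CXCL8; others (such as CXCL5 among its list, TNF, IL1A and NFKBIE, and the related genes of the colour map) were named after their values were seen.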

Additional observations from a re-analysis of the deposited data

How the results depend on the processing

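The count of members past the threshold depended on the error model and on ethanol replicate 3. Quantile normalization, median centring, a trended and robust prior, a fit of only the groups compared, no filter, a filter at 6 and the mean of a gene's probe sets left it at 0 of those tested in all 10 comparisons (limma); scaling moved the median gene by at most 0.048. With the replicate block 4 members passed for ethanol against medium at 48 h, CXCL2 and CCL20 as higher and CCL2 and IL1B as lower. Against DMSO 4 passed (CXCL8, CXCL2, CXCL3 and CCL20). Over all genes 2811 and 3143 passed in these comparisons. For time in medium and in DMSO 1 member (IL1B) passed, and the block changed no other member's call. The replicate numbers pair the arrays by correlation for the time comparisons. They do not for the ethanol comparisons at 48 h (lowest r -0.083 against medium and -0.0052 against DMSO). With array weights 3 passed against medium at 48 h, 4 against DMSO and 3 for time in ethanol. In these comparisons the settings other than leaving out 1 array gave 114 to 2985, 174 to 3246 and 95 to 3552 of all genes. Leaving out both ethanol replicate 3 arrays gave 4, 4 and 2, and with the block as well 6, 5 and 5 (beside 2985, 3246 and 3290 of all genes). Of the 6 against medium, 5 were higher under ethanol and IL1B was lower. That setting also gave 4 for the time change in ethanol against medium (CXCL8, CXCL2, CCL20 and IL6, beside 878 of all genes). The block on the 12 medium and DMSO arrays gave 5 for time in medium and 4 in DMSO. Leaving out both ethanol replicate 3 arrays, and joining the block with fewer arrays, were settings chosen after the data were seen. Leaving out 1 array gave 0 to 4 at 48 h against medium, 0 to 4 against DMSO and 0 to 4 for time in ethanol. The arrays whose loss raised these counts were ethanol 24 h replicate 3 (4, 4 and 4), ethanol 48 h replicate 1 (3 and 4, none for time) and ethanol 24 h replicate 1 (1, against DMSO). Over all genes, leaving out 1 array moved the count for ethanol against medium at 48 h between 861 and 2336 around 1654. Against DMSO it was 1098 to 2450 around 1934, and for time in ethanol 1728 to 2563 around 2493.

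Of 2300 differences of single members under an alternative, 92 had the opposite sign to the reported one, and none of these passed the threshold in either fit. With array weights estimated by limma, the differences of opposite sign were CXCL8 -0.22, CCL20 -0.53 and IL6 -0.73 for ethanol versus medium at 24 h, and CCL20 -0.27 and IL6 -0.45 for ethanol versus DMSO at 24 h, and IL6 -0.33 for DMSO versus medium at 48 h, and IL32 0.13 for 48 h versus 24 h in ethanol. Without both ethanol replicate 3 arrays, the differences of opposite sign were CXCL8 -0.26, CXCL2 -0.016, CCL20 -0.61 and IL6 -0.91 for ethanol versus medium at 24 h, and CXCL8 -0.00073, CXCL2 -0.067, CCL20 -0.37 and IL6 -0.59 for ethanol versus DMSO at 24 h, and CCL2 0.30 for 48 h versus 24 h in ethanol. Without these arrays and with the replicate block, the differences of opposite sign were CXCL8 -0.18, CCL20 -0.53 and IL6 -0.30 for ethanol versus medium at 24 h, and CCL20 -0.29 for ethanol versus DMSO at 24 h, and CCL2 0.30 for 48 h versus 24 h in ethanol. Leaving out 1 array at a time gave these ranges where a sign changed: for ethanol versus medium at 24 h, CXCL8 -0.26 to 0.79, CXCL2 -0.016 to 2.22, CCL2 -0.024 to 0.70, CCL20 -0.61 to 3.94, IL6 -0.91 to 3.21, IL1B -0.041 to 0.67 and IL32 -0.78 to 0.26. For ethanol versus DMSO at 24 h, CXCL8 -0.00073 to 1.05, CXCL2 -0.067 to 2.17, CCL20 -0.37 to 4.18, IL6 -0.59 to 3.54, IL1B -0.025 to 0.69 and IL32 -0.73 to 0.31. For ethanol versus DMSO at 48 h, IL32 -0.061 to 0.78. For DMSO versus medium at 24 h, CXCL2 -0.085 to 0.27, CXCL3 -0.0056 to 0.26, CCL2 -0.58 to 0.28, CCL20 -0.57 to 0.15, IL6 -0.75 to 0.25, IL1B -0.20 to 0.13 and IL32 -0.35 to 0.27. For DMSO versus medium at 48 h, CXCL2 -0.090 to 0.26, CXCL3 -0.36 to 0.032, CCL2 -0.76 to 0.28, CCL20 -0.67 to 0.55, IL6 -0.83 to 0.91, IL1B -0.60 to 0.30 and IL32 -0.14 to 0.42. For 48 h versus 24 h in medium, CXCL3 -0.014 to 0.25. For 48 h versus 24 h in DMSO, CXCL3 -0.37 to 0.024 and IL6 -1.62 to 0.11. For 48 h versus 24 h in ethanol, CXCL8 -0.13 to 0.92, CXCL3 -0.44 to 2.56, CCL2 -1.45 to 0.44, CCL20 -0.46 to 4.09, IL6 -1.25 to 2.98, IL1B -0.22 to 0.54 and IL32 -0.85 to 0.18. For time change in ethanol versus in medium, CXCL3 -0.60 to 2.41 and IL6 -0.12 to 4.10. The cause of these sign changes was not tested beyond the arrays named. With 3 arrays in a group and the spread of all groups, the SE for CCL20 was 1.82 log2 units between a pair of groups. It was 2.57 for the time change in ethanol against medium. Differences of that size could not be detected for CCL20 in this fit.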
